A study of Homo sapiens with 5 samples.

Results

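The genes described here encode the ubiquitin-conjugating (E2) enzymes whose symbols start with UBE2. They were found by name in the gene count files, leaving out UBE2C, antisense transcripts and names that end as pseudogenes do, which left 37 of 26485 genes. Reads of these genes were compared between 2 control and 3 AKAP12 knockdown libraries of SW480 cells, an established line from a human colorectal cancer. In both groups the cells carried dCas9-KRAB, a Cas9 without nuclease activity fused to a repressor domain, so that genes targeted by a guide RNA are transcribed less. Per the labels' protocols, the cells were transduced with control guides or with a guide against AKAP12, which encodes a scaffold protein for protein kinases A and C, and RNA was taken 48 hours after seeding. The sample titles, however, read shControl and shAKAP12, which would be short hairpin RNAs, and the labels thus give 2 silencing methods. Whether the replicates came from separate cultures is not given in the labels, and the spread behind the p-values is that between these libraries, which may be technical.

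Ubiquitin is passed along a relay: an E1 enzyme activates it, an E2 enzyme carries it on a cysteine, and an E3 ligase brings the loaded E2 to the protein to be marked. The E2 largely sets which kind of chain is built, and some members carry SUMO, NEDD8 or ISG15 instead of ubiquitin. UBE2V1 and UBE2V2 lack the active cysteine and work as partners of UBE2N.

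The libraries held 4935096 and 8670141 reads in the controls and 6890868 to 9311026 in the knockdown. AKAP12 was at 2870 and 1550 CPM (counts scaled to a common library total with TMM factors) in the controls and at 1159, 1063 and 1008 CPM in the knockdown, and its log2 fold change, -1.04 (SE 0.31), missed the threshold of 0.05 (edgeR adjusted p = 0.0513). Control 1 stood apart from the other libraries, with a Pearson r of log2 CPM across genes of 0.79 to 0.81 with the knockdown libraries against 0.92 to 0.93 for control 2. Short non-coding RNA genes held 8.62% of the reads in control 1, 1.69% in control 2 and 0.613% to 0.896% in the knockdown. TERT, the telomerase gene, held 366479 and 306715 reads in the controls and 4198 to 17172 in the knockdown. The fold changes of called members are therefore also given without either control. Of 8 markers of epithelial colorectal cells all were detected. Their summed level was 858 and 1552 CPM by library total in the controls and 1420 to 1686 in the knockdown. The single markers differed widely. KRT18 was at 354 to 989 CPM over the libraries, but CDH1 was at 1.29 to 6.28, VIL1 at 0.752 to 2.84 and TFF3 at 1.18 to 5.88. KRT19, KRT8, EPCAM and CDX2 lay between these levels. Lists of 10 stromal and endothelial and 10 blood markers summed to 382 to 630 and 87.7 to 144 CPM, and no marker was at 0 in every library. COL1A1 of the stromal list was at 144 to 214 CPM.

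In the knockdown, 8 UBE2 genes rose, among them a read-through gene that is not a measurement of an E2 mRNA, and 2 fell. The genes that rose were the chromatin and repair enzymes UBE2A, UBE2B and UBE2T, the broad-range enzymes UBE2D1, UBE2D2 and UBE2E3, the signalling-chain enzyme UBE2N and the read-through gene UBE2F-SCLY. The genes that fell were UBE2Z, which takes ubiquitin from the alternative E1 enzyme UBA6, and UBE2G2, an enzyme of endoplasmic reticulum (ER) associated degradation. Calls are those of edgeR's quasi-likelihood test with Benjamini-Hochberg adjustment over all genes and a threshold of 0.05. Of the 37 members, 32 passed the low-count filter and were tested. Calls were made for 10 of these 32 against 22.6% of all 14536 tested genes, with 11.2% of all genes higher and 11.4% lower. The median log2 fold change was 0.49 over the tested members (0.34 without control 1, 0.75 without control 2) and 0.04 over all tested genes. With UBE2F-SCLY left out, 7 members were higher, 2 were lower and the members' median was 0.40. Scaling by library size only, without a composition factor, moved the median of all genes up by 0.20 and gave a members' median of 0.67. DESeq2 called 12 members and 30.6% of all genes. Of the members, 22 had a positive and 10 a negative fold change. The groups did not overlap in 21 members against 60.1% of all genes, with 16 members higher (31.6% of all genes) and 5 lower (28.5%). With 1 library of the knockdown left out, edgeR called no gene of the whole table and therefore no member, and 10 to 12 members had an unadjusted p under 0.05.

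**Figure D1:**
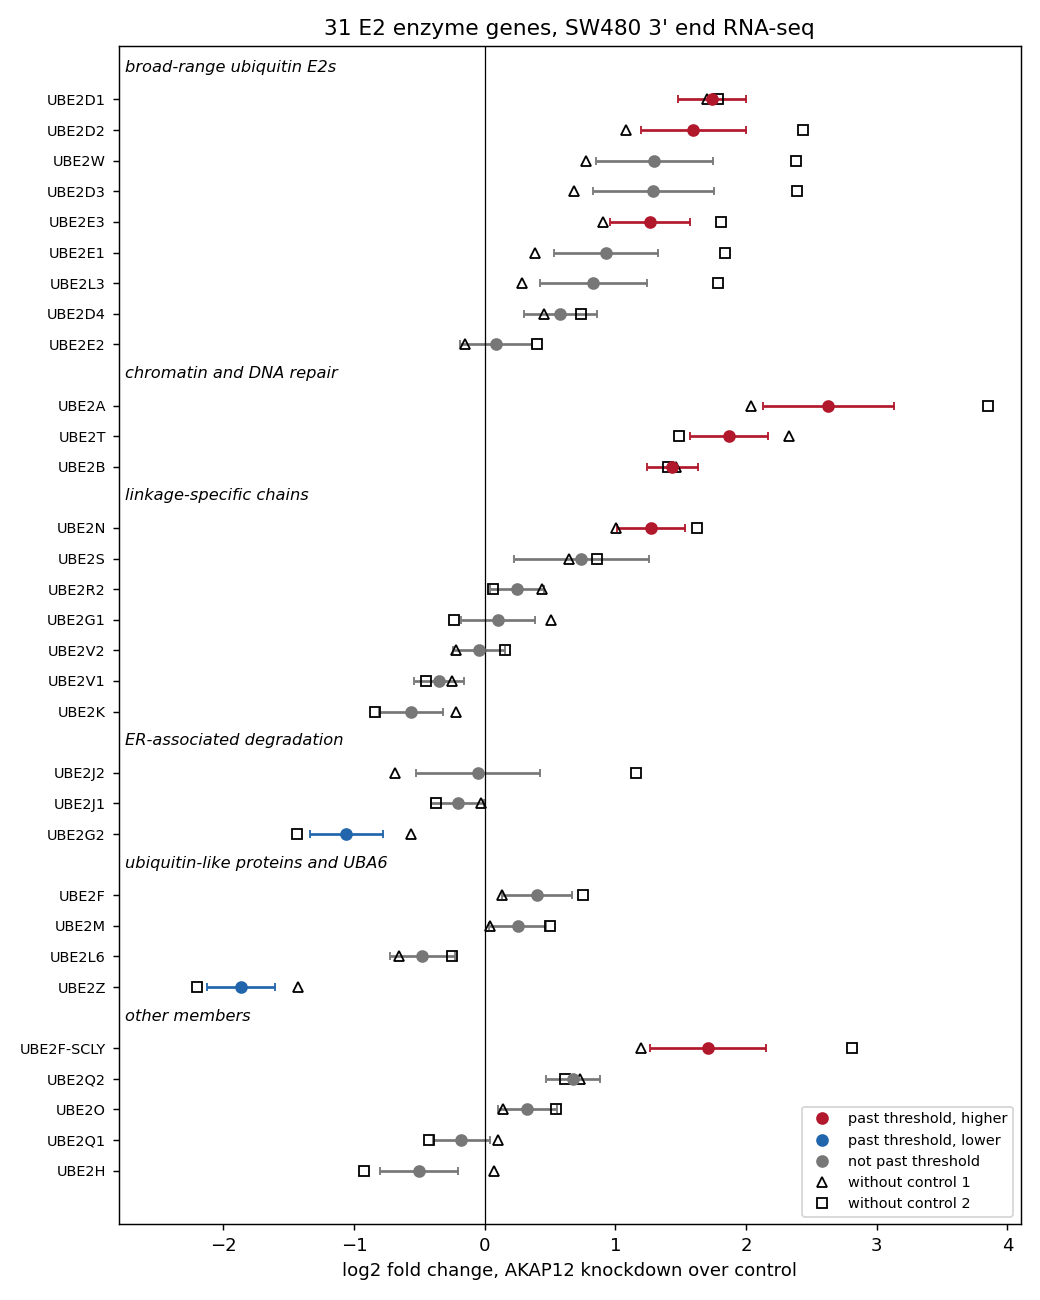
Log2 fold change of 31 of the 32 tested E2 genes (x axis, knockdown over control, bars show the SE), grouped by role, with triangles and squares for the fits without control 1 and without control 2. Members past the threshold reach from -1.86 for UBE2Z to 2.63 for UBE2A, and all 9 members listed as broad-range have a positive value. Over all tested genes, 7489 of 14536 values are positive.

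Printed below are the sequences before the gene starts of UBE2T and UBE2E3, which rose, and of the pair that fell, UBE2Z and UBE2G2. They are examples and do not stand for the other members that rose. They are RefSeq promoter sequences (GRCh38.p14, 5′ to 3′ along the gene's strand), cut where the gene begins in the count files. UBE2T lies on the minus strand and its window is chr1:202341967-202342186, and UBE2E3 lies on the plus strand with the window chr2:180980110-180980359. UBE2Z lies on the plus strand with the window chr17:48908157-48908368, and UBE2G2 on the minus strand with chr21:44801837-44802070. Capitals mark the CCAAT box and TGACG, the core of the cAMP response element, on either strand, so that a match on the other strand reads ATTGG or CGTCA.
UBE2T: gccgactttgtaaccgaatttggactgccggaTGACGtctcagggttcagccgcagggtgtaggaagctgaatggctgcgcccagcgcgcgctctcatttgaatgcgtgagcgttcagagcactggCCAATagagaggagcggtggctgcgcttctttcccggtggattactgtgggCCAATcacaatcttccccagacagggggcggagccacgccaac
UBE2E3: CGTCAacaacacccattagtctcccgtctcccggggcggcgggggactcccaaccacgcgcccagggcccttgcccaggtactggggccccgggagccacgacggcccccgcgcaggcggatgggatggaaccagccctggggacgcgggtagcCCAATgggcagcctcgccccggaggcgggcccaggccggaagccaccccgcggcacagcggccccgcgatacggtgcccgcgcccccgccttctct
UBE2Z: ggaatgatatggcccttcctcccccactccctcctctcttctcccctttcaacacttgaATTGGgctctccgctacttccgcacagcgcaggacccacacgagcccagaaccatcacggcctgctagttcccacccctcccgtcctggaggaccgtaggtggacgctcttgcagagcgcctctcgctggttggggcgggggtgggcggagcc
UBE2G2: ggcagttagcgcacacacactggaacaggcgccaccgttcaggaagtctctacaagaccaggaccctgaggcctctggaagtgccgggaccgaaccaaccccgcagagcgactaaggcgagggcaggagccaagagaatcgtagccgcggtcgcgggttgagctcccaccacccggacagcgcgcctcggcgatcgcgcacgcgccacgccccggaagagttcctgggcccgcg

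UBE2T holds 2 CCAAT boxes and 1 TGACG match in this window, UBE2E3 holds 1 of each, UBE2Z holds 1 CCAAT box and UBE2G2 holds neither. Among other members that rose, UBE2A and UBE2D1 hold neither, and UBE2F-SCLY holds CCAAT only. A promoter of 250 bases was found for 28 of the 37 members, and none for UBE2B, which rose. The counts below use all 250 bases, which in some members reach into the gene as the count files give it. Cut at the gene start like the printed sequences, the windows of UBE2D2 (77 bases) and UBE2N (0 bases), which rose, hold neither motif. CCAAT stood in 4 of 7 promoters of members that rose, 1 of 2 that fell and 3 of 17 that were not called, against 33.0% of 27305 promoters of all genes and 34.9% of those of tested genes. The window of UBE2F-SCLY, among the 4, covers the same stretch as that of UBE2F, which was not called, and without it the count was 3 of 6. TGACG stood in 4 of 7, 0 of 2 and 9 of 17, against 21.7% and 28.95%. Its full palindrome TGACGTCA, which contains TGACG on both strands, was found in 1 of 28 members, UBE2S, and in 1.77% of all promoters. In UBE2S it lies past the cut, inside the gene as the count files give it. A match of letters is a description and does not show that a factor binds there.

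UBE2A and UBE2B are near-identical enzymes, the human forms of yeast Rad6, that ubiquitinate histone H2B with the ligases RNF20 and RNF40 and the sliding clamp PCNA with RAD18. UBE2A (chromosome X, 119574467 to 119584429, hg38) was at 6.12 and 21.7 CPM in the controls and at 76.3, 89.5 and 101 CPM in the knockdown. All 3 knockdown libraries lay above both controls, which differed from each other 3.54-fold. The log2 fold change was 2.63 (SE 0.50, edgeR adjusted p = 0.0211), or 2.03 without control 1 and 3.85 without control 2. UBE2B (chromosome 5, 134371176 to 134392108) was at 64.4 and 62.0 CPM in the controls and at 176, 157 and 181 CPM in the knockdown. Its controls were nearly equal, and its 2.71-fold rise (log2 fold change 1.44, SE 0.19, edgeR adjusted p = 0.0140) was 1.47 without control 1 and 1.41 without control 2 on the log2 scale. The ligase genes RAD18 (0.16), RNF20 (-0.30) and RNF40 (-0.69) did not pass the threshold (edgeR adjusted p = 0.622, 0.378 and 0.0785).

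UBE2T carries ubiquitin to FANCD2 and FANCI with the ligase FANCL in the Fanconi anaemia pathway, which repairs DNA crosslinks. UBE2T (chromosome 1, 202331657 to 202341966) was at 19.8 and 11.1 CPM in the controls and at 57.8, 53.2 and 56.3 CPM in the knockdown. The knockdown libraries lay close together, 1.09-fold from lowest to highest, and above both controls. The gene rose 3.66-fold (log2 fold change 1.87, SE 0.30, edgeR adjusted p = 0.0163). Unlike in UBE2A, control 1 was the higher of the controls, and the log2 fold change was 2.33 without it and 1.49 without control 2. FANCL rose as well (1.78, edgeR adjusted p = 0.0328) and was at 6.37 and 19.0 CPM in the controls against 45.0 ± 4.18 CPM (SD, n = 3) in the knockdown, with a log2 value of 1.24 when control 1 is left out and 2.81 when control 2 is. All 3 tested chromatin and repair members passed the threshold as higher, against 11.2% of all tested genes. This short list was drawn up with earlier results of these data known. It leaves out UBE2N, whose chains also act in DNA damage signalling and which rose. Its partners UBE2V1 and UBE2V2, which did not pass, are left out as well.

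**Figure D2:**
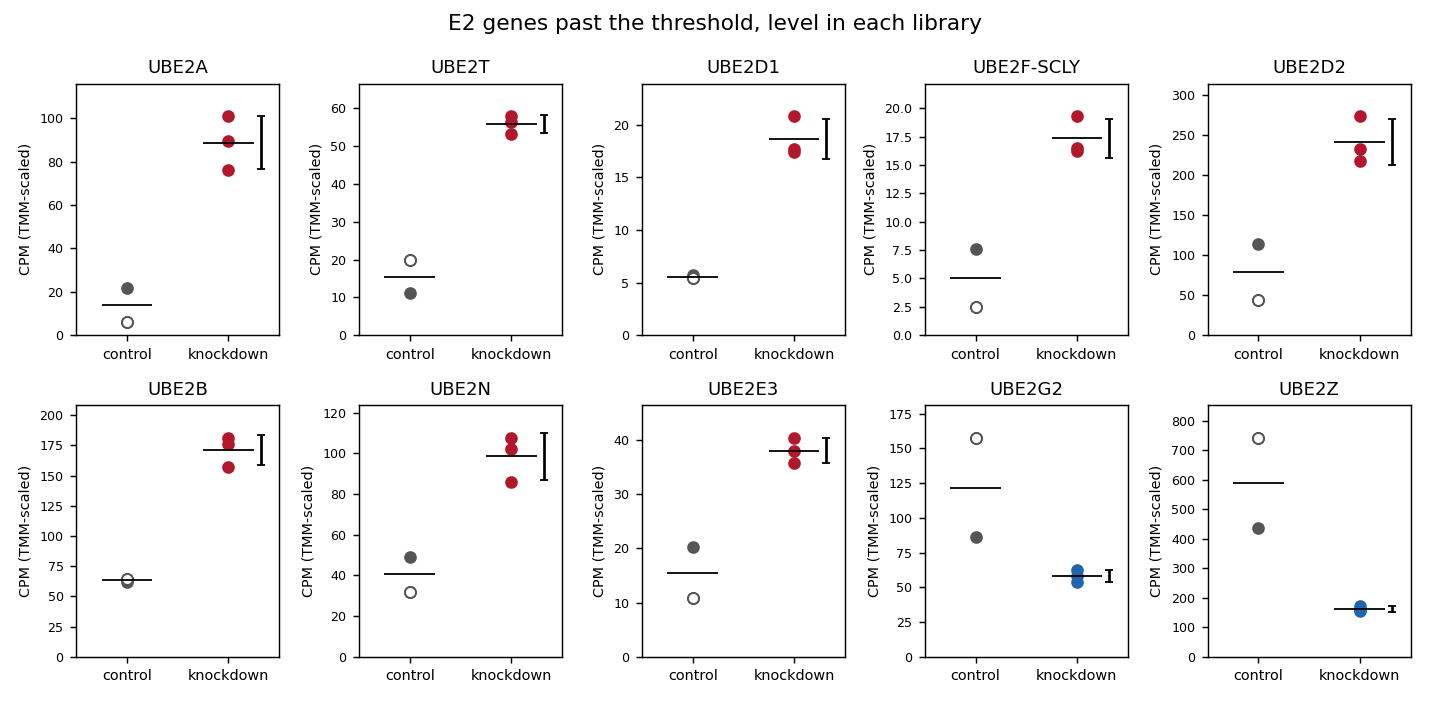
TMM-scaled CPM (y axis, starting at 0) of the 10 UBE2 genes past the threshold in each library, among them the read-through gene UBE2F-SCLY. Control 1 is the open circle, lines are group means and the bar beside them is the SD over 3 knockdown libraries. In every panel the 3 knockdown libraries lie on 1 side of both controls, and UBE2B and UBE2D1 have the closest controls.

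The UBE2D enzymes work with a large range of RING ligases and start ubiquitin chains on many proteins. UBE2D1 (chromosome 10, 58334979 to 58370753) was at 5.39 and 5.73 CPM in the controls and at 20.8, 17.4 and 17.7 CPM in the knockdown. The controls were close and the 3.33-fold rise (log2 fold change 1.74, SE 0.26, edgeR adjusted p = 0.0157) was 1.70 and 1.79 on the log2 scale without control 1 and control 2. UBE2D2 (chromosome 5, 139561166 to 139628433) was at 44.3 and 114 CPM in the controls and at 217, 232 and 273 CPM in the knockdown. It rose by 1.598 on the log2 scale (SE 0.40, edgeR adjusted p = 0.0351), with 1.08 without control 1 and 2.43 without control 2, and by library size only it missed the threshold (edgeR adjusted p = 0.0501).

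UBE2D3 (chromosome 4, 102794383 to 102868893) was at 46.8 and 154 CPM in the controls and at 255, 243 and 242 CPM in the knockdown. Its knockdown libraries differed by only 1.05-fold and lay above both controls, which differed 3.29-fold. Its log2 fold change of 1.29 (SE 0.46) did not pass (edgeR adjusted p = 0.0846), although it passed by DESeq2 (adjusted p = 0.0259) and without the low-count filter (edgeR adjusted p = 0.0483). UBE2D4 was at 7.59 and 9.29 CPM and at 10.8 to 14.5 CPM (0.58, edgeR adjusted p = 0.165). All 4 UBE2D genes were higher in each knockdown library than in either control, and 2 of them passed the test. Such separation was common, with 31.6% of all tested genes higher in this way and 11.2% called higher.

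The UBE2E enzymes are relatives of the UBE2D enzymes with an N-terminal extension. UBE2E3 (chromosome 2, 180980385 to 181063427), whose promoter is printed above, was at 10.8 and 20.3 CPM in the controls and at 37.9, 35.8 and 40.3 CPM in the knockdown. It rose 2.41-fold (log2 fold change 1.27, SE 0.31, edgeR adjusted p = 0.0321), with 0.91 without control 1 and 1.81 without control 2. UBE2E1 was at 35.8 and 98.2 CPM in the controls and at 125, 130 and 130 CPM in the knockdown, a value of 0.93 that did not pass (edgeR adjusted p = 0.130). UBE2E2 was at 11.5 and 17.0 CPM in the controls and at 14.0, 17.4 and 14.5 CPM in the knockdown, and its groups overlapped (0.09, edgeR adjusted p = 0.830). The 3 paralogs thus had fold changes from near 0 to above 2-fold.

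UBE2W, which places ubiquitin on the N-terminus of proteins, was at 3.18 and 9.75 CPM and at 17.6, 14.2 and 18.2 CPM. Its log2 fold change of 1.30 did not pass by edgeR (adjusted p = 0.0767) and did by DESeq2 (adjusted p = 0.0296). UBE2L3, which serves HECT and RING-between-RING ligases, was at 21.6 and 61.2 CPM and at 73.8, 75.3 and 74.4 CPM, a value of 0.83 (edgeR adjusted p = 0.173). In both genes the groups did not overlap, and the controls differed from each other 3.06-fold and 2.84-fold. The list of 9 broad-range members includes UBE2W and UBE2L3, whose roles given here are narrower than that name. Of these 9 members, 3 rose, 0 fell and 6 did not pass. Their median on the log2 scale was 1.27 (0.68 without control 1, 1.81 without control 2). Over all tested genes, 11.2% rose, 11.4% fell and the median was 0.04.

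UBE2N builds ubiquitin chains that act in DNA damage and inflammatory signalling, and does so only when bound to UBE2V1 or UBE2V2. UBE2N (chromosome 12, 93408312 to 93442250) was at 31.8 and 49.2 CPM in the controls and at 102, 85.7 and 107 CPM in the knockdown. It rose 2.42-fold (log2 fold change 1.27, SE 0.26, edgeR adjusted p = 0.0230), with 1.00 without control 1 and 1.62 without control 2. UBE2V1 was at 248 and 217 CPM in the controls and at 193, 167 and 187 CPM in the knockdown (log2 fold change -0.35, edgeR adjusted p = 0.213). The last 500 bases of UBE2V1 are shared with TMEM189-UBE2V1, which held 1004 reads in control 1 beside 1011 of UBE2V1. Reads of UBE2V1 and of TMEM189-UBE2V1 thus cannot be told apart. UBE2V2 was at 154 and 201 CPM in the controls and at 177, 174 and 166 CPM in the knockdown, inside the range of the controls (-0.04, edgeR adjusted p = 0.890). Neither partner gene passed the test in either direction.

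The ratio of reads of 2 genes within a library does not depend on library scaling. For UBE2N over UBE2V2 the controls had 0.207 and 0.245 and the knockdown libraries 0.578, 0.492 and 0.648. For UBE2N over UBE2V1, whose reads are shared with TMEM189-UBE2V1, the controls had 0.129 and 0.227. The knockdown libraries had 0.531, 0.514 and 0.574 for this pair. In both pairs each knockdown library had more than 2 times the ratio of either control. On the log2 scale the ratios were higher by 1.34 and 1.66, with an exact permutation p of 0.1 each (two-sided), which is the smallest that 2 libraries against 3 allow. In all 16 pairs were compared this way, chosen with the values known, and 10 of them reached that p (0.16 after Benjamini-Hochberg adjustment over the pairs, exact permutation test).

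**Figure D3:**
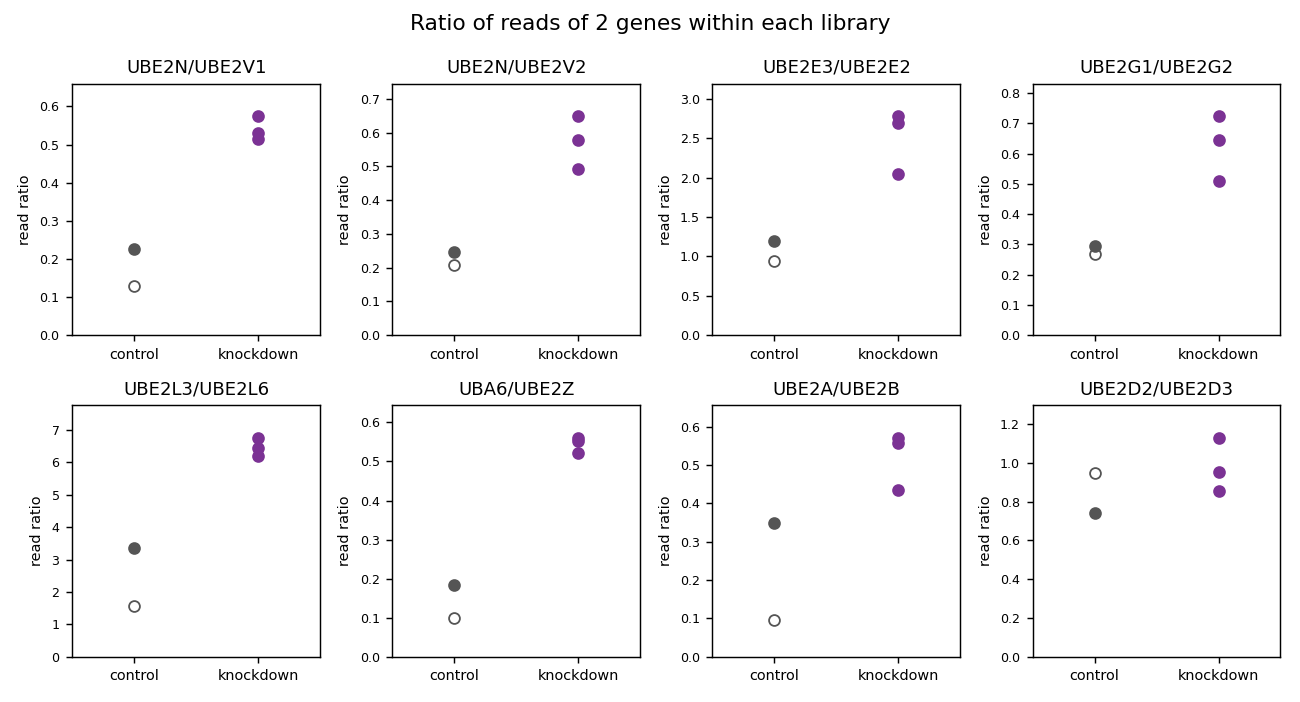
Ratio of reads of 2 genes within each library (y axis, starting at 0) for 8 of the 16 pairs, with control 1 as the open circle. In 7 pairs the knockdown libraries lie above both controls, and in UBE2D2/UBE2D3 the groups overlap.

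Among paralogs, UBE2E3 over UBE2E2 had control ratios of 0.936 and 1.20 and knockdown ratios of 2.701, 2.05 and 2.78. UBE2G1 over UBE2G2 had control ratios of 0.269 and 0.296, only 0.14 apart on the log2 scale, and knockdown ratios of 0.511, 0.722 and 0.643. UBE2L3 over UBE2L6 had control ratios of 1.57 and 3.36 and knockdown ratios of 6.74, 6.18 and 6.44. Its controls were 1.10 apart on the log2 scale, farther than control 2 was from any knockdown library. These 3 pairs separated the groups, whereas UBE2D2 over UBE2D3 (0.948 and 0.739 against 0.853 to 1.13) and UBE2M over UBE2F (6.30 and 5.63 against 4.56 to 5.84) overlapped. UBE2A over UBE2B separated them too, but its control values of 0.0951 and 0.349 were farther from each other than control 2 was from the knockdown (0.434, 0.570 and 0.558). How often pairs of other genes separate the groups was not tested.

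The other members that build chains of a given linkage did not pass. UBE2K was at 344 and 225 CPM in the controls and at 216, 175 and 187 CPM in the knockdown (log2 fold change -0.56, edgeR adjusted p = 0.134). UBE2R2, a close relative of CDC34, was at 114 and 88.0 CPM and at 108, 126 and 125 CPM (0.25, edgeR adjusted p = 0.410). UBE2G1 was at 42.4 and 25.5 CPM and at 31.9, 42.2 and 34.5 CPM, with overlapping groups (0.10, edgeR adjusted p = 0.807). UBE2S, which extends chains started by the anaphase-promoting complex, had only 10 and 25 reads in the controls and 24 to 58 in the knockdown, so its value of 0.74 (SE 0.52) is imprecise. UBE2NL had 0 reads in 4 libraries and 3 reads in knockdown 3, and was not tested.

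Among the enzymes of ER-associated degradation, which marks misfolded proteins taken out of the ER, UBE2G2 (chromosome 21, 44768580 to 44801836) was at 157 and 86.0 CPM in the controls and at 62.6, 58.4 and 53.7 CPM in the knockdown. It fell 2.08-fold (log2 fold change -1.06, SE 0.28, edgeR adjusted p = 0.0388), with -0.56 without control 1 and -1.44 without control 2. By library size only its edgeR adjusted p was 0.0560, outside the threshold.

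SYVN1, the HRD1 ligase of this degradation pathway, rose (edgeR adjusted p = 0.0440) and was at 1.225 and 18.8 CPM in the controls against 80.8 ± 4.95 CPM (SD, n = 3) in the knockdown. The log2 value of SYVN1, 2.92, became 2.10 without control 1 and 6.02 without control 2, and by library size only it missed the threshold (edgeR adjusted p = 0.0633). The membrane-anchored UBE2J1 was at 150 and 118 CPM in the controls and at 118, 106 and 125 CPM in the knockdown (-0.21, edgeR adjusted p = 0.478). UBE2J2 was at 45.1 and 162 CPM in the controls and at 114, 95.1 and 93.1 CPM in the knockdown. The knockdown libraries of UBE2J2 lay between the controls, and its value of -0.05 was -0.69 without control 1 and 1.16 without control 2.

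UBE2Z receives ubiquitin or the ubiquitin-like protein FAT10 from the E1 enzyme UBA6. UBE2Z (chromosome 17, 48908369 to 48929060) was at 741 and 437 CPM in the controls and at 173, 159 and 154 CPM in the knockdown. The gene fell 3.64-fold (log2 fold change -1.86, SE 0.26, edgeR adjusted p = 0.0141), with -1.43 without control 1 and -2.20 without control 2. Only 3.30% of all tested genes had a lower value. UBA6 was at 74.2 and 80.5 CPM in the controls and at 84.8 to 89.99 CPM in the knockdown, a value of 0.18 that did not pass (edgeR adjusted p = 0.480). The read ratio of UBA6 over UBE2Z was 0.100 in control 1, 0.184 in control 2 and 0.520, 0.559 and 0.552 in the knockdown libraries.

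None of the NEDD8 and ISG15 enzymes passed. UBE2M, which passes NEDD8 to most cullins with RBX1, was at 98.7 and 136 CPM and at 154, 132 and 134.5 CPM (0.25, edgeR adjusted p = 0.420). UBE2F, which does so with RNF7, was at 15.7 and 24.2 CPM and at 26.3, 23.8 and 29.5 CPM (0.40, edgeR adjusted p = 0.296). The ligase subunits RBX1 (0.73) and RNF7 (1.19) both rose (edgeR adjusted p = 0.0387 and 0.0402), though with GC offsets neither passed (0.0920 and 0.0591), and by library size only RNF7 did not (0.0503). UBE2L6, the ISG15 E2, was at 13.7 and 18.2 CPM and at 10.955, 12.2 and 11.6 CPM (-0.48, edgeR adjusted p = 0.198).

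UBE2F-SCLY is a read-through transcript from UBE2F into SCLY, the selenocysteine lyase gene. It was at 2.45 and 7.57 CPM in the controls and at 16.3, 19.3 and 16.5 CPM in the knockdown (log2 fold change 1.71, SE 0.44, edgeR adjusted p = 0.0377), with 1.19 without control 1 and 2.81 without control 2. By library size only it missed the threshold (edgeR adjusted p = 0.0512). Its 159, 144 and 134 knockdown reads stood beside 154, 133 and 129 reads of SCLY, whose exons it shares, and reads that overlap several genes were counted for each. This value is therefore one measurement with SCLY and not one of an E2 mRNA. Without it, 9 of 31 tested members were called, 7 of them higher. Exons of 8 of the 37 members overlapped another gene. TMEM189-UBE2V1 held 1828 reads in knockdown 1 beside 1884 of UBE2V1, and the other overlaps were with UBE2D3, UBE2D4, UBE2G1, UBE2L3, UBE2Q1 and UBE2F. Of 33 members with a protein-coding GENCODE transcript, 31 shared no stretch of 50 bases in their last 500 bases with another gene's transcripts. The exceptions were UBE2V1 (100%, with TMEM189-UBE2V1) and UBE2N (13.1%).

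The remaining tested members were not called. UBE2Q2 was at 37.97 and 35.1 CPM in the controls and at 57.2, 52.8 and 64.9 CPM in the knockdown, with groups that did not overlap and controls that were close (0.68, SE 0.20, edgeR adjusted p = 0.0543). It passed by library size only (edgeR adjusted p = 0.0342) and with the stricter filter (0.0464). Its paralog UBE2Q1 was at 138 and 96.5 CPM and at 103, 105 and 104 CPM (-0.18, edgeR adjusted p = 0.567). UBE2O, a large enzyme that acts as E2 and E3 in one, had a value of 0.33 and UBE2H one of -0.50 (edgeR adjusted p = 0.315 and 0.245). UBE2H was at 128 CPM in control 1 and at 64.3 to 70.4 CPM in the other 4 libraries. UBE2U had 3 reads in control 2 and 0 in the other libraries, UBE2QL1 had 0 to 3 reads, and UBE2DNL and UBE2Q2L had none in any library, where 3 reads would be 0.322 to 0.608 CPM by library total.

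Longest transcripts of the 8 members that rose had a median GC content of 41.2%, those of the 22 not called 45.0%, and those of all tested genes 48.4%. Over the 32 members, Spearman's rho of log2 fold change with GC content was -0.25, and over 13725 tested genes it was -0.20. These are correlations across genes of the same 5 libraries, and genes are not independent replicates. With a GC-dependent offset for each library the count of members called was 11 (8 higher, 3 lower) and all 10 calls held. Values of AT-rich members moved down, to 2.20 in UBE2A, 1.26 in UBE2D1 and -0.51 in UBE2V2, and UBE2K passed as lower (-0.94, edgeR adjusted p = 0.0453). With TERT and short RNA genes removed before scaling, 10 members were called, 8 higher and 2 lower.

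Along the rest of the relay, 110 genes for modifiers, E1 enzymes, other E2 enzymes and E3 ligases were tested, of which 17 rose and 13 fell (27.3% called, near the 22.6% of all tested genes), with a median log2 fold change of 0.12. The counts of each list below stand against 11.2% higher and 11.4% lower over all tested genes. Among 17 genes for ubiquitin and ubiquitin-like proteins, 4 rose and 1 fell. The autophagy genes MAP1LC3B and GABARAPL2 rose by 1.84 and 1.04 on the log2 scale (edgeR adjusted p = 0.0224 and 0.0213), while ATG12 fell by 1.04 (edgeR adjusted p = 0.0286). The value of MAP1LC3B was 1.37 without control 1 and 2.58 without control 2. The ubiquitin genes UBB (0.46) and RPS27A (0.97) did not pass (edgeR adjusted p = 0.189 and 0.496). RPS27A was at 244 CPM in control 1 and 4807 CPM in control 2, so its value rests on which control is used (0.05 without control 1, 4.34 without control 2).

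Among 10 E1 genes 1 rose, the NEDD8 E1 subunit NAE1 (1.14, edgeR adjusted p = 0.0392), whose call was lost by library size only (edgeR adjusted p = 0.0522) and with GC offsets (0.0637). UBA1, the main ubiquitin E1, was at 27.7 and 125 CPM and at 148, 153 and 202 CPM (1.12, edgeR adjusted p = 0.185). Of 7 E2 genes with other names 1 fell, CDC34 (-1.03, edgeR adjusted p = 0.0416), a call lost by library size only (0.0633) and with GC offsets (0.147).

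Of 43 RING and cullin ligase genes 9 rose and 4 fell, with a median of 0.24. SKP2, the F-box protein that targets p27, rose by 1.94, and among the genes that fell were STUB1, a ligase that works with chaperones (-2.52, with -1.09 without control 1 and -3.23 without control 2), and FZR1, an activator of the anaphase-promoting complex (-2.35, with -1.34 and -2.96). UBR4, an N-degron ligase, fell by 1.53. These 4 had edgeR adjusted p values from 0.0163 to 0.0252. Among 21 HECT and RING-between-RING ligases 1 rose and 6 fell, with a median of -0.37. HUWE1 fell by 1.11, UBE3C by 1.18 and TRIP12 by 0.99, and RNF14 rose by 1.44 (edgeR adjusted p from 0.0231 to 0.0293). Among 12 ligases and cofactors of SUMO and NEDD8, 2 rose and 1 fell. The genes that rose were PIAS4, a SUMO ligase (0.96), and DCUN1D1, a NEDD8 ligase (1.04), with edgeR adjusted p values of 0.0426 and 0.0318. PIAS4 was outside the threshold in limma-voom (adjusted p = 0.0523) and DCUN1D1 with GC offsets (edgeR adjusted p = 0.120). The difference between the HECT list and the E2 list was not tested.

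**Figure D4:**
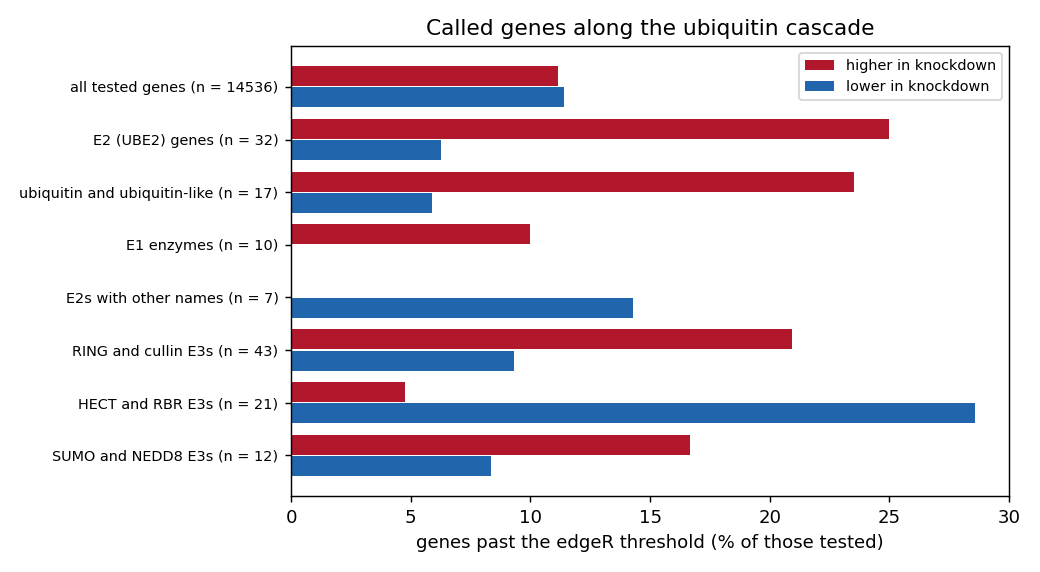
Share of tested genes past the edgeR threshold (x axis, percent) that were higher (red) or lower (blue) in the knockdown, for all tested genes, the UBE2 genes and each list along the relay, with the number tested in brackets. All tested genes stand at 11.2% higher and 11.4% lower. The UBE2 genes have 8 higher (7 without UBE2F-SCLY) and 2 lower of 32, and the HECT and RBR list has 1 higher and 6 lower of 21.

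In the authors' deposited table, 12 of 32 members with an adjusted p were past 0.05, 10 with a positive and 2 with a negative log2 fold change, against 25.3% of 16104 genes. All 10 members called here were among them. The authors' deposited table does not state its direction, which was read from a correlation of 0.999 with the fitted values over the tested genes. Over the tested members, its log2 fold changes differed from the fitted ones by at most 0.03.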

How the data were processed

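QuantSeq forward libraries, which sample transcript 3' ends, were made from 5 samples of SW480 cells, per the labels. The deposited count of each gene is a whole number of reads that the authors obtained with featureCounts 1.6.2 over exons, with reads on several genes counted for each and no strand option, per the file headers; overlapping and antisense genes cannot be told apart. STAR 2.7, DESeq2 1.22 and hg38 stand in the submitters' processing notes. The authors' deposited table holds a log2 fold change with its SE, a mean signal, a score (the test statistic) and p-values.

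Genes passing filterByExpr (minimum count 10) were scaled by TMM and tested two-sided with edgeR 4.0.16 (R 4.3.3), adjusted over 14536 genes. The SE was taken from the fold change and F. On simulated counts for this comparison (14214 genes), 71% of 100 genes changed 4-fold and 5% of 100 changed 2-fold were called, with 11 of 14014 unchanged genes. Far fewer genes were changed there than were called in the data, so these shares do not carry over. Alternatives were DESeq2 1.42.0, limma-voom (limma 3.58.1), RLE, library size only, no filter, at least 5 CPM in 2 libraries, a replicate block, each library left out, and TERT and short RNAs removed. GC offsets (span 0.2, GENCODE transcripts for 94.4% of tested genes) and leaving out UBE2F-SCLY were added after seeing the data. Limits from 3 reads cover counting error only.

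Members and lists were chosen with earlier results of these data known. A member and some partner genes are not reported here by name but stay in all counts. The other members are all accounted for, with library values for called members and paralog families, and partner lists are shown by up to 4 genes with the smallest p. FANCL, SYVN1, RBX1, RNF7, RAD18, RNF20, RNF40, UBA1, UBA6, UBB, RPS27A and the 16 ratio pairs were picked after their values were seen. Of 9 motifs searched on both strands, the CCAAT box and the cAMP response element (whole and core) are reported above. The GC box stood in 7 of 7 promoters of members that rose, 1 of 2 that fell and 15 of 17 not called. Of promoters of tested genes, 65.7% held it. ETS stood in 2 of 7, 1 of 2 and 1 of 17, against 15.2%. The NRF1, E2F, E and TATA boxes stood in none that rose or fell.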

Additional observations from a re-analysis of the deposited data

How the results depend on the processing

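The 10 members called kept their direction under every alternative listed, and 78 of their 90 values with all libraries kept the call. With all libraries and no block, 8 to 12 members were called. Same-numbered libraries did not deviate together (r of -0.05 and -0.08 across genes). With only 2 controls, whose deviations mirror each other, this cannot show whether the numbers pair libraries, and the labels state no pairing. With the replicate block, edgeR called 210 of all genes, 1 member (UBE2A) and 0 partner genes, with 13 members and 28 partner genes at an unadjusted p under 0.05. AKAP12 passed by DESeq2 (-1.09), limma-voom (-0.98), no filter (-0.996), the stricter filter (-1.06), GC offsets (-1.16), and with TERT and short RNAs removed (-1.04).

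With each library left out in turn, counts of calls ran from 0 to 8811 over all genes, from 0 to 25 over members and from 0 to 84 over partner genes. AKAP12 ran from -1.42 to -0.52 and the members' median from 0.31 to 0.75. The counts of 0 came without any 1 knockdown library, where 3774 to 4109 of all genes and 31 to 33 partner genes had an unadjusted edgeR p under 0.05. Without control 1 there were 17 and without control 2 there were 25 members called. In these fits the lone control is assumed to vary like the knockdown libraries, so they are not comparable with the other counts. By library size only the members' median was 0.67.

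Among members and named partner genes, sign changes were seen only in genes that were not called. UBE2J2 was at 0.151 by limma-voom, 0.0850 by library size only, 0.27 with the block and 0.163 with GC offsets. By library size only UBE2J1 was at 0.0179, UBE2Q1 at 0.0560 and UBE2V2 at 0.149. With GC offsets UBE2E2 was at -0.125, UBE2G1 at -0.14, UBA6 at -0.23 and RAD18 at -0.0757. With each library left out, UBE2E2 ran from -0.151 to 0.403, UBE2G1 from -0.234 to 0.507, UBE2H from -0.924 to 0.0694, UBE2J2 from -0.685 to 1.16, UBE2Q1 from -0.422 to 0.105, UBE2V2 from -0.219 to 0.157, RAD18 from -0.0330 to 0.368 and RNF20 from -0.583 to 0.0434, with both ends of each range from leaving out a control. The cause was not tested. On simulated counts few 2-fold changes were recovered, but 14014 of the 14214 genes there were unchanged. In the data 22.6% of tested genes were called, and the adjusted p depends on that share, so the simulated recovery does not carry over. An uncalled member may still have changed.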
